A study of Mus musculus with 18 samples.

Results

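The genes of cysteine supply and of the NRF2 antioxidant programme were followed in 18 mouse lung tumours through 10 members: Cth, Cbs, Slc7a11, Gclc, Gclm, Txnrd1, Srxn1, Nqo1, Hmox1 and Asns. The members were chosen by gene symbol, and all probe sets annotated to a single one of these symbols were taken, which gave 18 of the 22690 probe sets on the array. The members were chosen with earlier results of these data known, so their results are not independent support. Cth was picked for its difference in these same data, in a comparison that the rule of selection does not name, so all its values are a description and carry no test. Of the 10 members, 8 passed a filter on low signals (above the array median on at least 4 of 18 arrays) and were among the 7300 genes fitted, out of 12393 with a probe set. Cbs and Slc7a11 did not pass it and were fitted with all 20380 probe sets that carry 1 symbol, without the filter.

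The tumours came from 6 mice of a mixed C57/B6-129SvJae background, aged 10 weeks, and were microdissected. Treated mice had 2 intraperitoneal tamoxifen injections and gave their tumours on day 7 after the first, and the labels call these tumours p53 restored. Untreated mice had no such label and no injection is named for them. The 4 groups were treated grade 3 (6 tumours, adenocarcinomas), treated grade 2 (4 tumours, adenomas), untreated grade 3 (4 tumours) and untreated grade 2 (4 tumours). The sources used here do not name the alleles the mice carried or what drives a recombinase. A single female, mouse 8688, gave 9 of the 10 treated tumours, among them the 6 of grade 3. The tenth, 8639T4 of grade 2, is from a male, as are the 8 untreated tumours (mice 8565, 8584, 8629 and 8700). In grade 3, treatment, mouse and sex cannot be told apart, and in grade 2 only 8639T4 parts them. Several tumours share a mouse and are not independent, which makes p-values over tumours too small.

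Cysteine is the scarce building block of the antioxidant glutathione. Cells import its oxidised form, cystine, through the transporter made by Slc7a11, or build it from methionine by transsulfuration, in which Cbs joins homocysteine and serine to cystathionine and Cth splits cystathionine to release cysteine. The transcription factor NRF2 (gene Nfe2l2), held down by KEAP1, switches on genes for glutathione synthesis, thioredoxin reduction and quinone and heme breakdown through antioxidant response elements, and is often active in lung cancer. The transcription factor ATF4 answers amino acid shortage, and its targets include Asns, Cth and Slc7a11, so cystine import lies under both programmes.

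Promoter sequences were searched for the letters that each factor reads. RefSeq promoters (GRCm38.p6, 250 bases before a transcription start, read on the strand of the gene) were at hand for 7 of the 10 members, with 9 promoters among them. The ATF4-type element was searched as TGATGNAA and the antioxidant response element core as TGACNNNGC or TGAGNNNGC, each on both strands. The 2 promoters with an ATF4-type element are shown with that element in capitals, Asns because its treated and untreated tumours did not overlap and Slc7a11 because both factors are known to act on it. The promoters of Srxn1 and Gclm are shown as members that hold antioxidant cores, in capitals, and no ATF4-type element.
Asns, chr6:7693210-7693459, minus strand: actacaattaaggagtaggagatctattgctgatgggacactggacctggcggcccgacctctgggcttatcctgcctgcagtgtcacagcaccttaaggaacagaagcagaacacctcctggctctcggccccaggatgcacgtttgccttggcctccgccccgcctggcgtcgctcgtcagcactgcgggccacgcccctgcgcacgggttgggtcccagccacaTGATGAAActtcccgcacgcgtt
Slc7a11, chr3:50443614-50443863, minus strand: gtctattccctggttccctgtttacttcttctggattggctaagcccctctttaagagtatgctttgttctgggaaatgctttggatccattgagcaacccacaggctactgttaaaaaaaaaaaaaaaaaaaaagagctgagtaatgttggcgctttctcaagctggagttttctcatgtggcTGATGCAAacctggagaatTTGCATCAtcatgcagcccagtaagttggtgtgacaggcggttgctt
Srxn1, chr2:152105274-152105523, plus strand: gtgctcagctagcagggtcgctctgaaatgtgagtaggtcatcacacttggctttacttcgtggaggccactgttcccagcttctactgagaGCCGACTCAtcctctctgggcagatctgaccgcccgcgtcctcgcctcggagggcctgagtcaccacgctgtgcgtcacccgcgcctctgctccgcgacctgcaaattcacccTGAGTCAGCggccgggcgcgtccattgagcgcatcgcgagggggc
Gclm, chr3:122245307-122245556, plus strand: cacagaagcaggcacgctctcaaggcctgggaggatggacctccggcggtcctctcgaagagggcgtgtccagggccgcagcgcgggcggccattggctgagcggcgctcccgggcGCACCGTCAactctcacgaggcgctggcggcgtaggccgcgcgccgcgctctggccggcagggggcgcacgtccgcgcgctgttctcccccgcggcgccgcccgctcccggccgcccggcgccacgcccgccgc

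In Asns the ATF4-type element TGATGAAA lay 23 to 16 bases before the start. Slc7a11 held TGATGCAA at 66 to 59 bases before the start and TTGCATCA, the same letters on the other strand, at 47 to 40 bases. Srxn1 held the core GCCGACTCA, read on the other strand, at 158 to 150 bases and TGAGTCAGC at 45 to 37 bases before the start, while Gclm held GCACCGTCA at 134 to 126 bases. In lower case above, Asns also held GCAGTGTCA at 172 to 164 bases and Slc7a11 GCTTTCTCA at 97 to 89 bases, both matches to the antioxidant core on the other strand. Of the 3 promoters of Txnrd1, 1 held a core (GCTTTGTCA, 92 to 84 bases before its start). Neither motif was in the windows of Cbs and Nqo1. Among 27025 genes with a promoter in the table, 3.91% held the ATF4-type element and 25.7% an antioxidant core. In a list of ATF4 targets, described further on, 11 of 30 genes (36.7%) held the ATF4-type element, against 1 of 29 genes (3.45%) in a list of NRF2 targets. The antioxidant core was found in 13 of 29 NRF2 targets (44.8%) and in 11 of 30 ATF4 targets (36.7%). Both lists are counted here with their members. Asns and Slc7a11 are thus among the ATF4 targets with the ATF4-type element, and Slc7a11 is the NRF2 target that holds it. These matches describe letters and not binding.

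Signals are log2 values per probe set, and the array medians lay within 6.05 and 6.18. The precision of the treatment differences is limited by the number of mice, 2 treated and 4 untreated, and not by the number of arrays alone. The lung tumour markers Sftpc, Sftpb, Napsa, Epcam, Krt8 and Krt18 lay above the median on 18 of 18 arrays, whereas Nkx2-1, the lung lineage factor, did so on 0. Cdkn1a, the p21 gene and a p53 target, ranged from 10.52 to 11.87 in treated and from 8.88 to 10.80 in untreated tumours, with fitted differences of 1.53 (SE 0.44, limma adjusted p = 0.151) in grade 3 and 1.24 (SE 0.44, adjusted p = 0.51) in grade 2. The mean of 4 genes listed as a check of p53 activity was 9.93 to 10.93 in treated tumours. The untreated grade 2 tumours of mouse 8700 lay within that range, at 10.13 in 8700T1 and 10.00 in 8700T3. The other untreated tumours lay at 8.95 to 9.52. The excess of 3' over 5' signal of control transcripts, a sign of RNA breakdown, was 2.62 in 8688T3 and 1.85 in 8639T4, against 0.62 to 1.05 in the others, and fits without both tumours are given beside the results that they change. Hbb-b2, an adult beta-globin gene and the one erythroid marker tested, fell by 3.09 in grade 3 and by 3.00 in grade 2. It passed in both grades (limma adjusted p under 0.05), where 0.466% and 0.0685% of 7300 genes passed. Treated tumours lay at 6.09 to 7.75 and untreated ones at 9.35 to 10.66, the reverse of the pattern of Cth. The part of Hbb-b2 in the members' values was not tested. In grade 3 all 6 tested markers of alveolar type 1 cells had a higher signal in treated tumours (median 0.37), and 1 of them passed. In grade 2 it was 2 of 6, and none passed. The part of these markers in the members' values was not tested. Of 4 fitted club and ciliated cell markers none passed, and 3 in grade 3 and 4 in grade 2 had a lower signal in treated tumours (medians -0.76 and -0.69), with list means of 6.26 to 10.33 in treated and 8.40 to 11.32 in untreated tumours; their part in the members' values was not tested. A mean of 12 macrophage markers ranged from 9.09 to 9.66 in treated and from 9.17 to 9.56 in untreated tumours. Of 7 endothelial markers 6 were higher in treated tumours in grade 3 (median 0.39) and 1 in grade 2 (median -0.23). Of 7 fibroblast markers it was 3 and 2 (medians -0.02 and -0.52). Of 4 T and NK cell markers it was 3 and 0 (medians 0.07 and -0.52). The shares over all 7300 genes were 56.9% and 53.9%. None of these markers passed, and their part in the members' values was not tested. In bulk tumour RNA, fewer cells of a type and less RNA per cell cannot be told apart.

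Cth, the cysteine-releasing enzyme, was higher in every treated than in every untreated tumour. Its log2 signal was lowest at 9.18, had a median of 9.29 and was highest at 9.42 in the 6 treated grade 3 tumours, a spread of 0.08 (SD, n = 6). In treated grade 2 it was 9.62 in 8688T8, 9.24 in 8688T9, 8.94 in 8639T4 and 9.23 in 8688T10. In untreated grade 3 it was 6.43 in 8584T3, 6.86 in 8565T1, 8.35 in 8629T10 and 6.84 in 8629T12. The treated tumours thus lay close together whatever their grade, but 9 of the 10 came from mouse 8688, so this is mostly a spread within that mouse. The untreated tumours came from 4 mice, and among those of grade 3, 8629T10 stood above the other 3. In untreated grade 2 Cth was 7.88 in 8700T1, 7.52 in 8700T3, 7.71 in 8565T3 and 7.05 in 8565T4. The male treated tumour 8639T4 had the lowest treated value, and it still lay above the highest untreated value, that of 8629T10. It is a single tumour with a 3' excess of 1.85, so nothing about sex or mouse is read from it. The fitted treated minus untreated difference, from a limma model of the 4 group means with the mouse as a random block, was 2.13 (SE 0.34, a 4.39-fold signal) in grade 3 and 1.66 (SE 0.35, 3.16-fold) in grade 2. Since Cth was picked for a difference in these data, these sizes are given without a test. With sex as a covariate, which rests on 8639T4, they were 1.77 and 1.37. Between grades Cth differed by -0.48 (SE 0.31) in untreated and by -0.01 (SE 0.25) in treated tumours, grade 3 minus grade 2.

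Cbs, which makes the cystathionine that Cth splits, was dim, and neither of its probe sets exceeded any array's median. The brighter one ran in the direction of Cth, with a lowest value of 4.50, a median of 4.71 and a highest value of 5.12 in treated grade 3. The treated grade 2 tumours had 4.99 in 8688T8, 4.93 in 8688T9, 4.51 in 8639T4 and 4.41 in 8688T10. In the untreated tumours it was 3.73 in 8584T3, 3.65 in 8565T1, 3.79 in 8629T10 and 3.51 in 8629T12 in grade 3, and 3.93 in 8700T1, 3.84 in 8700T3, 3.26 in 8565T3 and 3.78 in 8565T4 in grade 2. All 10 treated tumours lay above all 8 untreated ones, 8639T4 with its 3' excess included. The same held for 36 of all 20380 probe sets with 1 symbol (0.177%). In the fit of all these probe sets the brighter Cbs probe set rose by 1.04 in grade 3 (SE 0.20, 2.05-fold, limma adjusted p = 0.0337), where 0.447% of probe sets passed the threshold of 0.05. In grade 2 it differed by 0.99 (SE 0.21, adjusted p = 0.119), where 0.0638% passed. The grade 3 call was lost without 8688T2, 8688T6, 8565T1 or 8629T12 (adjusted p from 0.0577 to 0.0715), on means per animal (1.09, adjusted p = 1) and with sex as a covariate (0.82, adjusted p = 0.36). The dimmer Cbs probe set, at 3.37 to 4.08 over the 18 tumours, overlapped between treated and untreated tumours and differed by 0.24 (SE 0.13, adjusted p = 0.619) in grade 3 and 0.13 (SE 0.13, adjusted p = 0.925) in grade 2. Signals this far below the median lie near background, so differences of Cbs are imprecise in size.

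**Figure D1:**
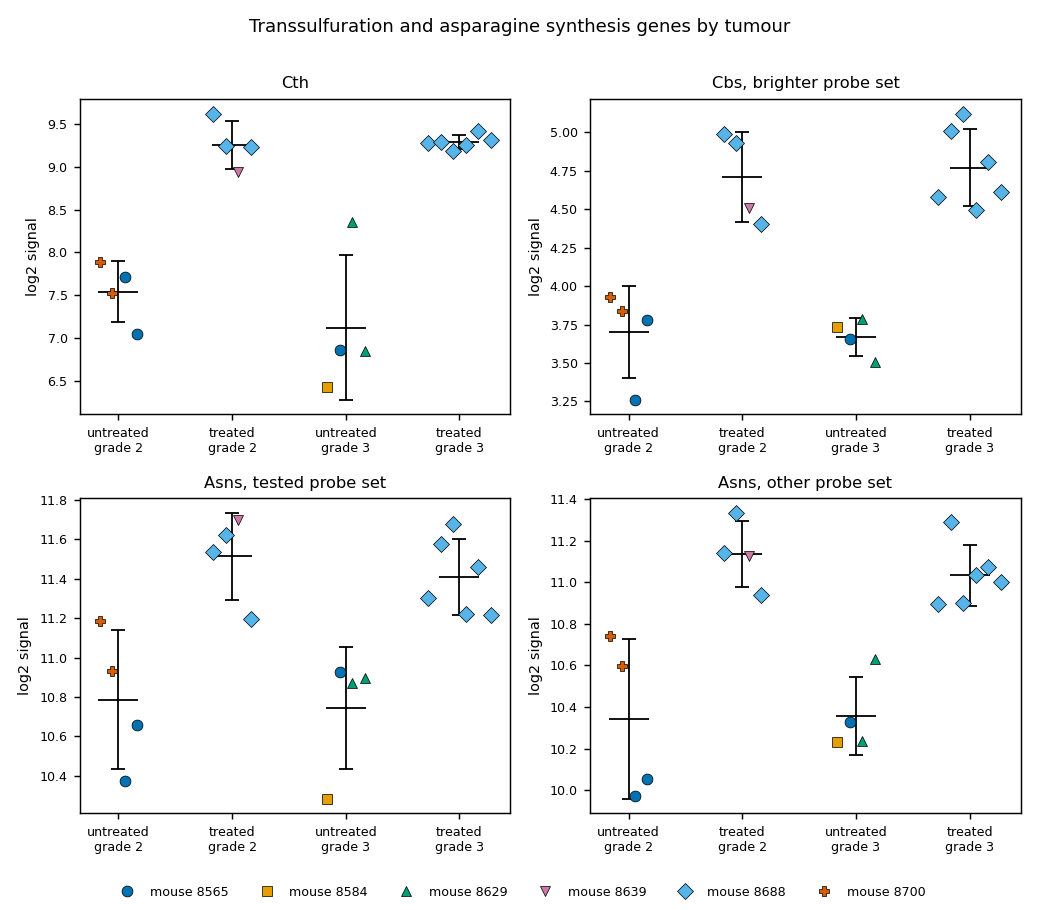
Log2 signal of Cth, the brighter Cbs probe set and both Asns probe sets in each of 18 tumours by group; each point is a tumour, its shape and colour give the mouse, and bars are the group mean ± SD. In each of the 4 panels every treated tumour lies above every untreated tumour, including the single male treated tumour 8639T4, which had a 3' excess. Cbs lies below the array medians of 6.05 to 6.18.

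Asns, which makes asparagine from aspartate and is a classic ATF4 target, was the one member besides Cth that passed the filter and whose treated and untreated tumours did not overlap. The tested probe set, of a type whose probes can match related transcripts, had a lowest value of 11.22, a median of 11.38 and a highest value of 11.68 in treated grade 3. Treated grade 2 values were 11.54 in 8688T8, 11.62 in 8688T9, 11.70 in 8639T4 and 11.20 in 8688T10. In untreated tumours it was 10.28 in 8584T3, 10.93 in 8565T1, 10.87 in 8629T10 and 10.90 in 8629T12 in grade 3, and 11.19 in 8700T1, 10.93 in 8700T3, 10.37 in 8565T3 and 10.66 in 8565T4 in grade 2. The margin was narrow, since 8700T1 reached nearly the lowest treated value, that of 8688T10, and within untreated grade 2 both tumours of mouse 8700 lay above both of 8565. The second Asns probe set had no overlap either, at 10.90 to 11.33 in treated and 9.98 to 10.74 in untreated tumours.

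The fitted difference of Asns was 0.69 (SE 0.21, 1.61-fold, limma adjusted p = 0.208) in grade 3 and 0.79 (SE 0.22, 1.72-fold, adjusted p = 0.284) in grade 2, so it did not pass over all genes in either grade. Without the animal term, which treats all tumours as independent, it passed in grade 3 (0.66, adjusted p = 0.0313). The mean of both treatment differences, a comparison added after the values were seen, was 0.74 (SE 0.18, adjusted p = 0.0706). That value passed without 8688T10 (0.77, adjusted p = 0.0364), without 8584T3 (0.62, 0.0162) or without 8700T1 (0.80, 0.0338), and with each array centred on its median (0.76, 0.0419) or with probe sets averaged (0.73, 0.0362). It did not pass on means per animal (0.75, adjusted p = 0.772), with sex as a covariate (0.92, 0.325) or without 8688T3 and 8639T4 (0.65, 0.306). The second probe set gave 0.65 (SE 0.17, adjusted p = 0.131) in grade 3 and 0.80 (SE 0.18, adjusted p = 0.148) in grade 2 in the fit of all probe sets.

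As background for these counts, 34 of 7300 genes (0.466%) passed for treatment in grade 3, 5 (0.0685%) in grade 2 and 46 (0.63%) over both grades. Cth left aside, none of the 7 tested members was among them. All treated tumours lay above all untreated ones for 207 genes (2.84%) within grade 3, 295 (4.04%) within grade 2 and 15 (0.205%) over both grades. Of the 7 tested members, Asns did so in each of the 3 counts. Cth did so too, and nothing is read from that, since it was picked for its difference. The other 13 genes without overlap over both grades included Shmt2, the mitochondrial serine-to-glycine enzyme, and Eprs, a tRNA synthetase, both named after their values were seen. At an unadjusted p under 0.05 there were 645 genes in grade 3 and 510 in grade 2, among which Asns was the sole one of the 7 tested members in both grades.

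Slc7a11, the cystine importer, never exceeded an array's median. Its signal was lowest at 3.41, had a median of 3.83 and was highest at 3.97 in treated grade 3. Among treated grade 2 tumours it was 3.67 in 8688T8, 4.51 in 8688T9, 3.75 in 8639T4 and 3.71 in 8688T10. In untreated tumours it was 5.50 in 8584T3, 3.53 in 8565T1, 3.58 in 8629T10 and 3.75 in 8629T12 in grade 3, and 3.47 in 8700T1, 3.55 in 8700T3, 3.23 in 8565T3 and 3.05 in 8565T4 in grade 2. The 4 treated grade 2 tumours lay above the 4 untreated ones, as for 712 of the 20380 probe sets (3.49%), while in grade 3 the highest value was that of an untreated tumour, 8584T3. Differences were -0.43 (SE 0.36, limma adjusted p = 0.774) in grade 3 and 0.50 (SE 0.37, adjusted p = 0.891) in grade 2, so no change of the import route was detectable at this signal. The negative sign in grade 3 rested on 8584T3, without which the difference was 0.07 (adjusted p = 0.961).

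The 2 subunits of glutamate-cysteine ligase, which binds cysteine into glutathione, overlapped between treated and untreated tumours. Gclc, the catalytic subunit, had values of 11.02, 11.29 and 11.42 (lowest, median, highest) in treated grade 3. In treated grade 2 it was 11.31 in 8688T8, 11.23 in 8688T9, 11.47 in 8639T4 and 10.99 in 8688T10. Untreated values were 11.04 in 8584T3, 10.98 in 8565T1, 11.48 in 8629T10 and 11.14 in 8629T12 in grade 3 and between 11.06 and 11.17 in grade 2. The highest Gclc value of all was thus in an untreated tumour, 8629T10. The differences were 0.16 (SE 0.15, adjusted p = 0.769, 95% interval -0.15 to 0.47) in grade 3 and 0.14 (SE 0.15, adjusted p = 0.875, interval -0.17 to 0.46) in grade 2. Its second probe set, in the fit of all probe sets, gave 0.19 (SE 0.16) in grade 3 and 0.38 (SE 0.16) in grade 2. The grade 2 interval, 0.04 to 0.71, left out 0 (limma unadjusted p = 0.0296, adjusted p = 0.709), and the probe set did not pass.

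Gclm, the modifier subunit, ranged from 6.99 to 7.62 with a median of 7.23 in treated grade 3 and from 6.90 to 7.54 in treated grade 2. It ranged from 6.91 to 7.16 in untreated grade 3 and from 6.81 to 7.32 in untreated grade 2. All groups overlapped, with 8688T1 highest and 8565T3 lowest. Its differences were 0.32 (SE 0.19, limma adjusted p = 0.645, interval -0.07 to 0.72) in grade 3 and 0.18 (SE 0.19, adjusted p = 0.875, interval -0.23 to 0.59) in grade 2.

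Among the thioredoxin genes, Txnrd1, which encodes the reductase that recharges thioredoxin, was the tested member with the smallest p for a treatment difference that depends on grade. Its tested probe set was 9.45, 9.59 and 9.88 (lowest, median, highest) in treated grade 3. The treated grade 2 values were 9.36 in 8688T8, 9.66 in 8688T9, 9.98 in 8639T4 and 9.40 in 8688T10. In untreated tumours it lay between 9.40 and 9.53 in grade 3, and was 10.07 in 8700T1, 9.85 in 8700T3, 9.46 in 8565T3 and 10.02 in 8565T4 in grade 2. The untreated grade 3 tumours were close together and low, while 3 of the 4 untreated grade 2 tumours lay above all of them and 8565T3 lay among them. Treatment differed by 0.23 (SE 0.18, limma adjusted p = 0.726) in grade 3 and by -0.21 (SE 0.18, adjusted p = 0.849) in grade 2. The difference between these 2 effects was 0.44 (SE 0.20, unadjusted p = 0.0462, adjusted p = 0.539), and none of the 7300 genes (0%) passed for that interaction, with 665 at an unadjusted p under 0.05. Grade 3 minus grade 2 in untreated tumours was -0.38 (SE 0.16, adjusted p = 0.342), in a comparison where 13 genes (0.178%) passed. The 2 dimmer Txnrd1 probe sets, below the median on every array, ran the other way in grade 3 at -0.13 (SE 0.27) and -0.17 (SE 0.21). With the 3 probe sets averaged the treatment difference in grade 3 turned to -0.02 and the grade difference to 0.03.

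Srxn1, which encodes the sulfiredoxin that repairs over-oxidised peroxiredoxins, had 4 probe sets, and each had a positive treatment difference in both grades. The tested one was 9.06, 9.49 and 9.84 (lowest, median, highest) in treated grade 3. In treated grade 2 it was 9.44 in 8688T8, 9.79 in 8688T9, 10.27 in 8639T4 and 9.17 in 8688T10. In untreated tumours it was 9.80 in 8584T3, 9.13 in 8565T1, 8.63 in 8629T10 and 9.21 in 8629T12 in grade 3 and between 9.12 and 9.56 in grade 2. The groups overlapped, since 8584T3 reached nearly the highest treated grade 3 value. The difference was 0.37 (SE 0.29, adjusted p = 0.732, interval -0.24 to 0.97) in grade 3 and 0.36 (SE 0.30, adjusted p = 0.841, interval -0.26 to 0.98) in grade 2. The other 3 probe sets gave 0.22 to 0.50 in grade 3 and 0.37 to 0.52 in grade 2, and none passed.

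Nqo1, the quinone reductase that often serves as a readout of NRF2, had lower group means in grade 3 than in grade 2, with and without treatment. Grade 3 tumours had mean log2 signals of 5.75 ± 0.41 (SD, n = 6) with treatment and 5.77 ± 0.53 (SD, n = 4) without it. Grade 2 tumours had means of 6.40 ± 0.28 (SD, n = 4) with treatment and 6.37 ± 0.43 (SD, n = 4) without it. Single tumours ranged from 5.24 to 6.26 in treated grade 3 and from 6.06 to 6.65 in treated grade 2. The untreated tumours ranged from 5.15 to 6.42 in grade 3, where 8584T3 was highest, and from 5.98 to 6.98 in grade 2, so grades overlapped in both arms. Grade 3 minus grade 2 was -0.62 in treated (SE 0.25, unadjusted p = 0.0212, limma adjusted p = 0.997) and -0.58 in untreated tumours (SE 0.30, adjusted p = 0.442), and neither passed. For grade in treated tumours no gene passed (0%), with 141 at an unadjusted p under 0.05. Nqo1 lay near the array medians of 6.05 to 6.18, its grade 2 means above them and its grade 3 means below. It may thus have passed the filter mainly through grade 2, where it is high, so its grade difference is a description only. Treatment differed by 0.00 (SE 0.33, adjusted p = 1, interval -0.70 to 0.70) in grade 3 and 0.04 (SE 0.34, adjusted p = 0.987, interval -0.68 to 0.75) in grade 2. These intervals are wide, and the sign in grade 3 turned under several alternatives.

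Hmox1, which encodes the heme-degrading oxygenase and is also abundant in macrophages, lay between 8.71 and 9.26 with a median of 9.02 in treated grade 3 and between 8.61 and 9.02 in treated grade 2. It lay between 8.75 and 9.16 in untreated grade 3 and between 8.81 and 9.17 in untreated grade 2. Every group overlapped every other. The differences were -0.08 (SE 0.17, adjusted p = 0.904, interval -0.42 to 0.27) in grade 3 and -0.15 (SE 0.17, adjusted p = 0.882, interval -0.51 to 0.20) in grade 2. The part of red blood cell RNA, for which Hbb-b2 is given above, was not tested.

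**Figure D2:**
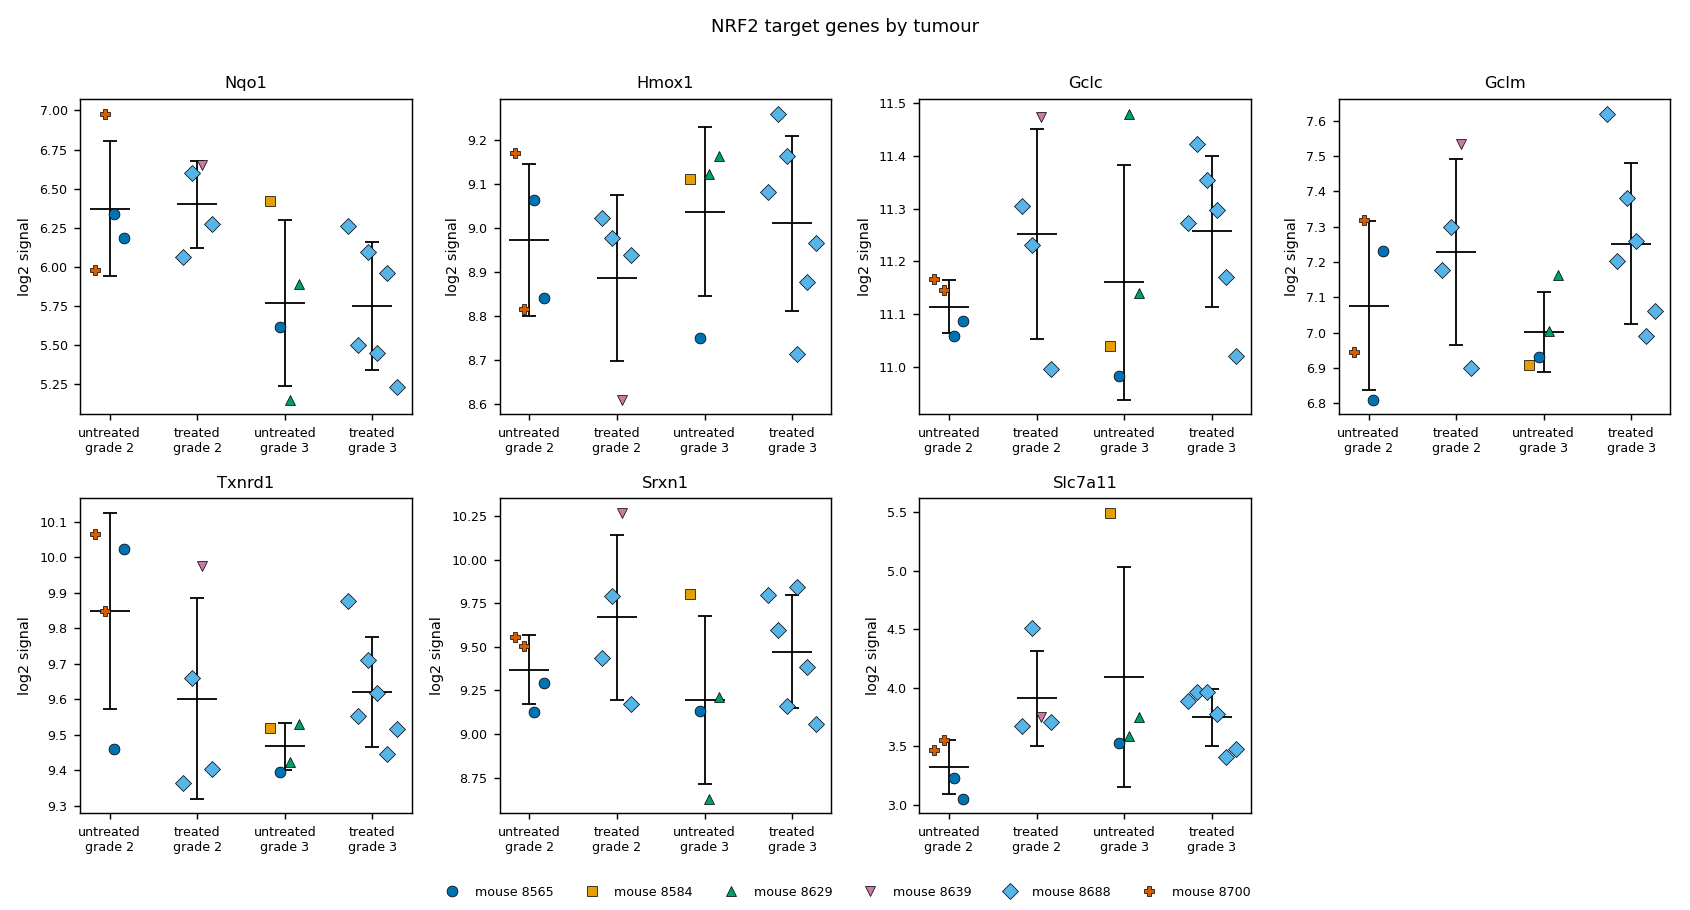
Log2 signal of the 7 members that are NRF2 targets in each of 18 tumours by group, with the tested or, for Slc7a11, the sole probe set; points are tumours with the mouse as shape and colour, and bars are the group mean ± SD. Treated and untreated tumours overlap in every panel over both grades, and Nqo1 has means of 5.75 and 5.77 in grade 3 against 6.40 and 6.37 in grade 2.

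**Figure D3:**
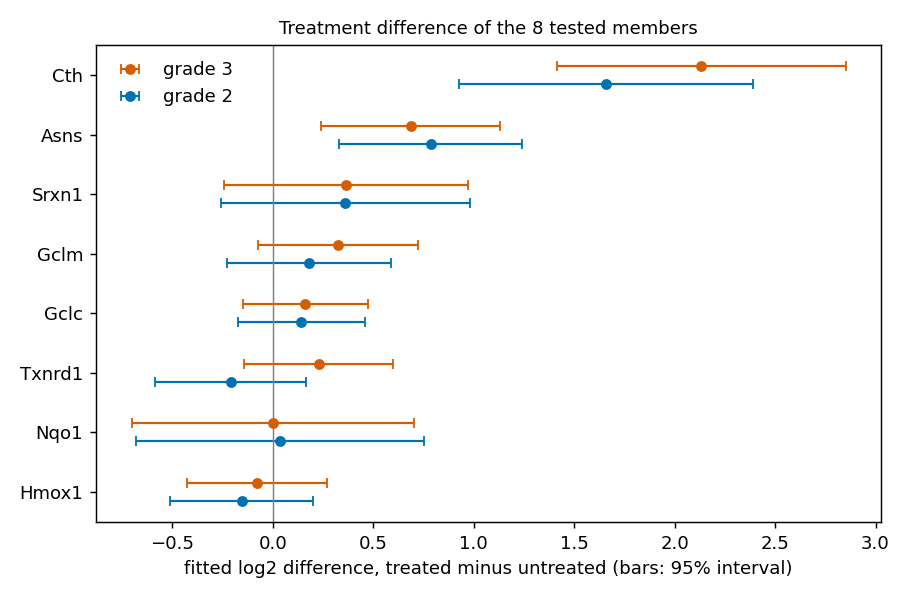
Fitted log2 difference, treated minus untreated, of the 8 tested members in grade 3 and grade 2, with 95% intervals from the limma model. Cth lies at 2.13 and 1.66 and was picked for its difference in these data. Asns lies at 0.69 and 0.79. At the tested probe sets the intervals of the 6 NRF2 targets span 0 in both grades.

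Across the 18 tumours Cth and Asns moved together (Pearson r = 0.813), while the NRF2 targets that were tested followed Cth less closely, at r = 0.489 for Gclc, 0.365 for Gclm, 0.161 for Srxn1, -0.0205 for Hmox1, -0.111 for Txnrd1 and -0.169 for Nqo1. These are descriptions over 18 tumours that share 6 mice, and Cth was picked for its difference in these data. Over treated and untreated tumours together, any gene with a treatment difference follows Cth through that difference. For the members r was not computed within each arm, so these values add nothing to their treatment differences. The 5 tested genes whose pattern was most like that of Cth were Cebpg (r = 0.92), which encodes a C/EBP family partner of ATF4, Bex1 (0.916), Ttc5 (0.912), which encodes a p300 cofactor of the p53 response, Ctr9 (0.896), a transcription elongation gene, and Nampt (0.895), which makes a precursor of NAD. Within the 10 treated tumours r with Cth was -0.364 for Cebpg, 0.792 for Bex1, 0.776 for Ttc5, 0.722 for Ctr9 and 0.429 for Nampt. Within the 8 untreated tumours it was 0.906, 0.745, 0.603, 0.65 and 0.78 in the same order. The 5 genes were taken for their r with Cth over these same tumours, and Cth spread little among the treated ones. Nothing is therefore read from the values within an arm or from their contrast between arms.

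The other genes of each pathway were taken from lists, which were also chosen with earlier results of these data known. In a list of 41 genes of the ATF4 amino acid response, 28 were tested, and 26 without the members. Of these 26, 24 had a higher signal in treated tumours in grade 3 (median difference 0.41) and 21 in grade 2 (median 0.38), against 56.9% and 53.9% of all 7300 genes (medians 0.04 and 0.02). In grade 3 none of the 26 passed. In grade 2 Eif4ebp1, which encodes a brake on translation, rose by 1.12 (SE 0.19, limma adjusted p = 0.022), against 0.55 (SE 0.19, adjusted p = 0.271) in grade 3, an interaction of -0.56 (SE 0.22, adjusted p = 0.539). Over both grades, in the comparison added after the values were seen, 25 of the 26 were higher, against 58.8% of all 7300 genes. There 3 of the 26 passed, against 0.63% of all genes. These were Eif4ebp1 at 0.83 (SE 0.15, limma adjusted p = 0.016), Shmt2 at 0.80 (SE 0.16, adjusted p = 0.0327) and Trib3, a pseudokinase that feeds back on ATF4, at 1.14 (SE 0.25, adjusted p = 0.0428).

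These calls changed when single tumours were left out. Of 18 fits without 1 tumour, Trib3 was lost in 14, Shmt2 in 8 and Eif4ebp1 in 3 over both grades, the last without 8688T3 (adjusted p = 0.0555), 8629T10 (0.0551) or 8565T4 (0.113). Shmt2 was lost without 8688T3, 8688T8, 8639T4, 8629T10, 8629T12, 8700T3, 8565T3 or 8565T4. Trib3 remained called without 8688T5, 8688T10, 8584T3 or 8700T1. In grade 2 the call of Eif4ebp1 was lost without 8688T3, 8688T8, 8639T4, 8629T10, 8700T3 or 8565T4 (adjusted p from 0.0507 to 0.276). The calls of Eif4ebp1, Shmt2 and Trib3 were also lost under 3 other settings. On means per animal the differences over both grades were 0.85, 0.80 and 1.13 in that order, and with sex as a covariate 1.06, 1.14 and 1.84, with adjusted p from 0.0794 to 0.775. Without 8688T3 and 8639T4, the tumours with the 3' excess, they were smaller, at 0.75, 0.68 and 0.85 (adjusted p from 0.119 to 0.254). With probe sets averaged, Trib3 (1.19, adjusted p = 0.0515) and the grade 2 call of Eif4ebp1 (0.80, 0.0986) were lost too.

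The mean signal of the 26 ATF4 list genes was lowest at 9.35 in 8688T1 and highest at 9.70 in 8688T3 in treated grade 3. In treated grade 2 it was 9.59 in 8688T8, 9.53 in 8688T9, 9.83 in 8639T4 and 9.42 in 8688T10. In untreated tumours it was 8.92 in 8584T3, 9.22 in 8565T1, 9.07 in 8629T10 and 9.21 in 8629T12 in grade 3, and 9.40 in 8700T1, 9.10 in 8700T3, 9.02 in 8565T3 and 9.13 in 8565T4 in grade 2. Treated and untreated tumours did not overlap within a grade, but 8700T1 lay above 8688T1 and 8688T5 of treated grade 3. The highest values of all 18 tumours were those of 8639T4 and 8688T3, the tumours with the 3' excess. Without both, 23 of the 26 genes were higher in treated tumours in grade 3, 20 in grade 2 and 22 over both grades. Single genes of the list that did not pass had sizeable differences too. Chac1, which breaks down glutathione, differed by 1.18 (SE 0.37, adjusted p = 0.227) in grade 3 and 1.15 (SE 0.38, adjusted p = 0.446) in grade 2. Ddit3, the stress factor CHOP, differed by 0.69 (SE 0.23, adjusted p = 0.262) and 0.51 (SE 0.24, adjusted p = 0.711). Slc7a5, the light chain of a large neutral amino acid carrier, differed by 0.83 (SE 0.33, adjusted p = 0.409) and 0.88 (SE 0.33, adjusted p = 0.566). The serine synthesis genes were smaller, with Phgdh at 0.44 (SE 0.30) and 0.28 (SE 0.31) and Psat1 at 0.28 (SE 0.26) and 0.64 (SE 0.26), and none passed. Slc3a2, the heavy chain that pairs with the Slc7a11 transporter, differed by 0.27 (SE 0.16, adjusted p = 0.651) and 0.19 (SE 0.17, adjusted p = 0.851). Of the genes of this list, all except Eif4ebp1 and the members were named after their values were seen.

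In a list of 35 NRF2 targets, 28 were tested and 22 without the members. Of these 22, 12 were higher in treated tumours in grade 3 (median 0.09) and 13 in grade 2 (median 0.01). The shares over all 7300 genes were 56.9% and 53.9%. The sole gene of the list to pass, in grade 3, where 0.466% of 7300 genes did, was Ephx1, which encodes the microsomal epoxide hydrolase. It rose by 2.36 (SE 0.48, limma adjusted p = 0.0377). It ranged from 9.26 to 10.96 in treated grade 3. In untreated grade 3 it was 7.61 in 8584T3, 7.98 in 8565T1, 7.49 in 8629T10 and 6.48 in 8629T12, so the groups did not overlap. Within grade 3 the same held for 2.84% of the 7300 genes. In grade 2 Ephx1 was 9.45 to 10.08 in treated and 8.36 to 10.21 in untreated tumours (0.49, SE 0.49, adjusted p = 0.868). The difference between its grade 3 and grade 2 effects was 1.87 (SE 0.56, limma adjusted p = 0.539). Its grade 3 call was lost without 8688T1, 8688T3, 8629T10, 8629T12, 8565T3 or 8565T4 (adjusted p from 0.0536 to 0.134), with sex as a covariate (2.18, 0.337), on means per animal (2.41, 1) and with the grade 3 groups alone (2.50, 0.0927). The mean of the 22 NRF2 list genes lay between 9.75 and 10.38 in treated and between 9.88 and 10.11 in untreated tumours, with overlap in both grades and both extremes in treated grade 3 tumours, 8688T11 and 8688T1.

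**Figure D4:**
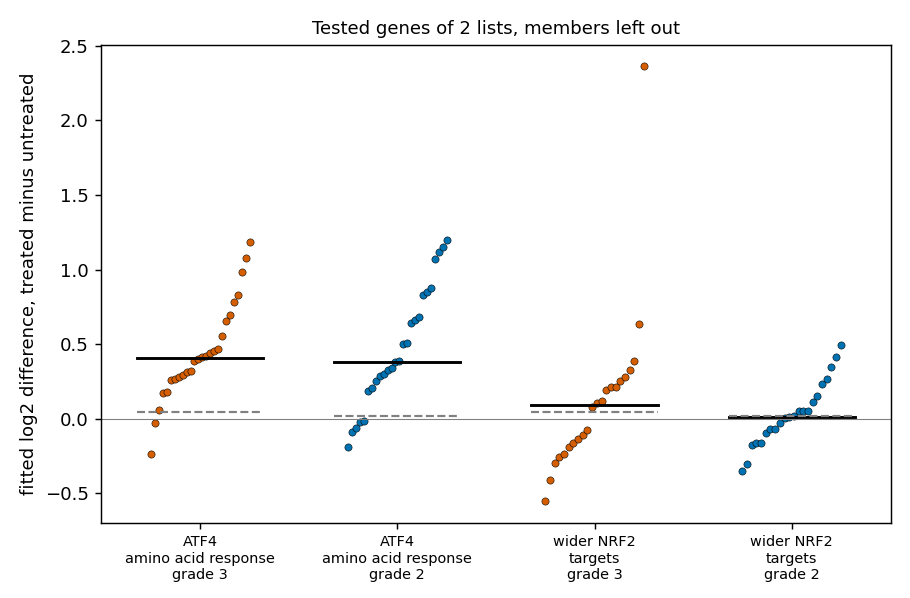
Fitted log2 difference, treated minus untreated, of each tested gene of the ATF4 amino acid response list (26 genes) and the wider NRF2 target list (22 genes), members left out, in grade 3 and grade 2; black lines are list medians and dashed lines the medians of all 7300 genes. In the ATF4 list 24 and 21 genes lie above 0, in the NRF2 list 12 and 13, with Ephx1 highest at 2.36.

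**Figure D5:**
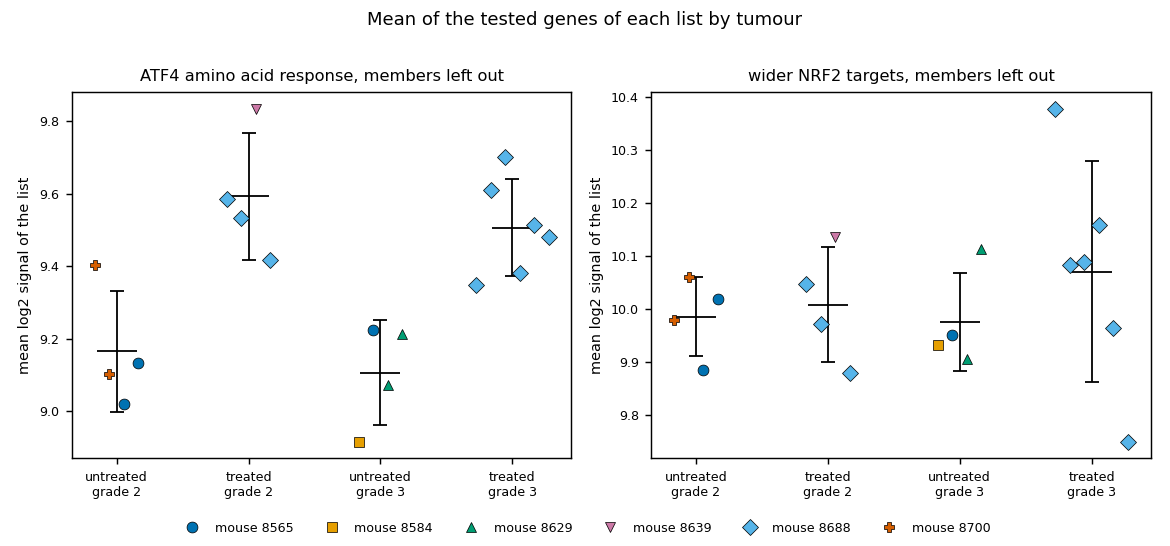
Mean log2 signal of the same 2 gene lists in each of 18 tumours by group; points are tumours with the mouse as shape and colour, and bars are the group mean ± SD. The ATF4 list lies at 9.35 to 9.83 in treated and 8.92 to 9.40 in untreated tumours, which overlap over both grades but not within a grade. The NRF2 list overlaps within each grade.

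The regulators themselves did not pass in any comparison. Nfe2l2, which encodes NRF2, ranged from 11.76 to 12.22 in treated and from 11.37 to 12.25 in untreated tumours, and differed by 0.12 (SE 0.20, limma adjusted p = 0.87) in grade 3 and 0.26 (SE 0.20, adjusted p = 0.84) in grade 2. Keap1, which holds NRF2 down, differed by -0.03 (SE 0.17) and -0.10 (SE 0.17). Bach1, a heme-sensing repressor at the same elements, differed by 0.00 (SE 0.15) in grade 3 and 0.32 (SE 0.15, adjusted p = 0.711) in grade 2. Atf4 differed by -0.24 (SE 0.38) in grade 3 and 0.66 (SE 0.39, adjusted p = 0.791) in grade 2, with values from 10.32 to 11.78 in treated and 10.02 to 11.42 in untreated tumours. Another Atf4 probe set, also above the median on 18 arrays, lay at 10.17 to 10.85 in treated and 10.06 to 10.41 in untreated tumours, with overlap. In the list of NRF2 regulators 9 of 11 tested genes were higher in treated tumours in grade 3 (median 0.11) and 6 of 11 in grade 2 (median 0.19). The shares over all 7300 genes were 56.9% and 53.9%, and none of the 11 passed. NRF2 and ATF4 are also set at the level of their proteins, which arrays do not measure.

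The remaining lists showed few called genes. Beside their counts stand the shares over all 7300 genes, of which 56.9% were higher in treated tumours in grade 3 and 53.9% in grade 2. In the transsulfuration and cysteine list 8 of 11 tested genes were higher in treated tumours in grade 3 (median 0.13) and 7 of 11 in grade 2 (median 0.20), Cth included, and none of the other 10 passed. In the methionine cycle, which feeds transsulfuration, 4 of 7 genes were higher in grade 3 (median 0.02) and 6 of 7 in grade 2 (median 0.13). Mat1a, a gene for the enzyme that makes S-adenosylmethionine, rose by 0.89 from grade 2 to grade 3 in untreated tumours (SE 0.16, limma adjusted p = 0.0248). It ranged from 6.33 to 6.92 in untreated grade 3 and from 5.48 to 5.84 in untreated grade 2. The 4 untreated grade 3 tumours lay above their array medians and were by themselves enough for the filter, while no untreated grade 2 tumour did, so Mat1a entered the fit through the group where it is high and had to differ. That call was lost without 8629T12, 8700T1, 8700T3, 8565T3 or 8565T4 (adjusted p from 0.0505 to 0.102), with the animal as a fixed block (0.76, 0.999), on means per animal (0.91, 0.736) and with the untreated groups alone (0.90, 0.148). Among 23 genes of glutathione synthesis and use, 12 were higher in grade 3 (median 0.01) and 11 in grade 2 (median -0.08), and none passed. Among 15 thioredoxin and peroxiredoxin genes 10 and 8 were higher (medians 0.12 and 0.05), and none passed. In the heme and iron list 7 and 2 of 11 were higher (medians 0.07 and -0.07), and in the superoxide and peroxide enzymes 4 and 2 of 4 (medians 0.21 and -0.07), with none passing.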

How the data were processed

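Per the labels' protocols, 100 ng of total RNA from each tumour was amplified and biotinylated for an array of a single colour. The values are log2 signals per probe set as the authors deposited them; the submitters' processing notes name GCRMA 2.20.0 and R 2.11.0. GCRMA estimates background from probe sequence and equalises the arrays' distributions, which removes differences in total RNA and compresses low signals. No batch or scan date was used here.

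The probe set with the highest mean stood for a gene, and a gene was tested if it exceeded the array median on 4 or more arrays, so it could pass through 1 group alone. limma 3.58.1 (R 4.3.3) fitted the means of the 4 groups over 18 tumours, the mouse being a random block (correlation 0.259, or 0.228 over all probe sets). P-values were adjusted by Benjamini-Hochberg with a threshold of 0.05. The 5 comparisons were treatment within grade 3, treatment within grade 2, the difference between both, and grade within each arm; the mean of both treatment differences was added after the values were seen. The members and gene lists were chosen with earlier results of these data known. The text names all members, 4 regulators, Cdkn1a, at most 2 passing genes per list and comparison and the 5 genes most like Cth, and marks others. Xist and Eif2s3y matched the sex labels of all mice. By gene ID, the reference table held 20351 of the 20380 probe sets that carry 1 symbol. The fit was tested on simulated data. Alternatives left out the animal term, set the animal as a fixed block, used means per animal, a sex term, the compared groups alone, no filter, averaged probe sets or centred arrays, or left out tumours.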

Additional observations from a re-analysis of the deposited data

Results flagged for a closer look

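Of 72 sets of member probe set and group that were looked at, 5 held a tumour that lay far from the others of its group by Dixon's criterion, a rate near the 1 in 20 that chance gives. The untreated tumour 8584T3 was in 2 of them: Slc7a11 was 5.50 there against 3.75 or less in the other untreated grade 3 tumours, and the tested Asns probe set was 10.28 against 10.87 or more. Slc7a11 was also high in the treated grade 2 tumour 8688T9, at 4.51 against 3.75 or less. The untreated grade 3 tumour 8565T1 was low in a dim Txnrd1 probe set, at 5.03 against 5.66 or more, and in Hmox1, at 8.75 against 9.11 or more. Slc7a11 and that Txnrd1 probe set never exceeded an array's median.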

How the results depend on the processing

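Cth was higher in treated tumours under each alternative run, and leaving out 1 tumour gave 1.91 to 2.46 in grade 3, 1.47 to 1.81 in grade 2 and 1.79 to 2.08 over both grades. Cth was picked for its difference in these same data and its treated and untreated tumours did not overlap, so nothing is read from its keeping its sign. The number of genes that passed depended on how the animal was treated. Without the animal term 272 passed for treatment in grade 3, 37 in grade 2, 370 over both grades and 111 for grade in untreated tumours. On means per animal 0 passed in each of these comparisons, and with the animal as a fixed block 0 passed for grade in untreated tumours; treatment could not be fitted with that block. With sex as a covariate 10 passed in grade 3 (6 of them among the 34), 2 in grade 2, 1 over both grades and 1 for the interaction. Without the filter 64, 10 and 29 passed for treatment in grade 3, in grade 2 and grade in untreated tumours, and with the compared groups alone 12, 20 and 2. Without 8688T3 and 8639T4, 10 passed in grade 2 and 17 over both grades, and averaging probe sets left 29 over both grades. Leaving out 1 tumour gave 12 (without 8565T4) to 168 (without 8584T3) genes in grade 3, 2 to 35 in grade 2, 8 (without 8565T4) to 218 (without 8584T3) over both grades, 0 to 14 (without 8565T1) for the interaction and 2 to 98 (without 8565T1) for grade in untreated tumours. The causes were not tested.

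Of the members other than Cth, 1 passed in grade 3 without the animal term (Asns) and 1 without the filter (Cbs). Over both grades 1 passed without the animal term, without the filter, with probe sets averaged and with arrays centred, and 0 to 1 when 1 tumour was left out. Cbs gave 1.09 on means per animal and 0.82 with sex in grade 3, neither past the threshold, and 1.01 in grade 2 without the animal term, past it (adjusted p = 0.0133); without 1 tumour, at the animal correlation of all tumours, it gave 0.97 to 1.09 in grade 3 and 0.84 to 1.09 in grade 2. Asns gave 0.51 to 0.81 in grade 3, 0.69 to 0.89 in grade 2 and 0.62 to 0.80 over both grades without 1 tumour. The listed ATF4 genes above 0 numbered 23 to 25 in grade 3, 20 to 25 in grade 2 and 23 to 25 over both grades without 1 tumour, and the NRF2 genes 10 to 14, 9 to 14 and 10 to 14.

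Signs turned for small differences that had not passed. Nqo1 in grade 3 was -0.019 without the animal term, -0.10 on means per animal, -0.0014 without the filter, -0.048 with the compared groups alone and -0.13 without 8688T3 and 8639T4, which also gave -0.078 in grade 2; without 1 tumour it ran from -0.16 to 0.22 in grade 3 and -0.12 to 0.24 in grade 2. Slc7a11 ran from -0.65 to 0.073 (without 8584T3) in grade 3 and from 0.32 to 0.58 in grade 2 without 1 tumour. Hmox1 in grade 3 was 0.0085 on means per animal. Txnrd1 was -0.019 in grade 3 and 0.027 for grade in untreated tumours with probe sets averaged, and 0.12 in grade 2 with sex. Asns for grade in untreated tumours was -0.041, -0.088 and -0.024 without the animal term, on means per animal and with the compared groups alone, and -0.14 to 0.14 without 1 tumour; its interaction ran from -0.23 to 0.057. Cth for grade in treated tumours was 0.032 without the animal term, 0.14 on means per animal and -0.076 to 0.12 without 1 tumour. No paired analysis was possible beyond the animal block because tumour numbers do not pair tumours across groups. Signals near background limit Cbs and Slc7a11.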
